A study of Capra hircus with 6 samples.

Results

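The genes described here are markers of leptomeningeal fibroblasts, the matrix-producing cells of the pia and arachnoid, other than collagens. The list named 10 genes: DCN, LUM, OGN, BGN, FMOD, SLC6A13, ALDH1A2, PTGDS, FBLN1 and MGP. The FPKM of all transcripts of each gene were summed per library, and 9 of the 10 genes were found among the 20225 genes of the mRNA table. MGP matched no gene of the table and is not analysed here. The gene called PTGDS here has that name in the study's list of genes near lncRNAs. The genes were selected on the difference in FPKM between pubertal and prepubertal libraries, which was known when the list was made. Their differences between the stages are therefore a description, and no test of them is read as support.

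Hypothalamus RNA came from 3 pubertal goats of 4.5 to 5 months, in the late follicular phase, and from 3 prepubertal goats of 2.5 to 3 months. All were female Anhuai goats, kept under the same conditions, and each gave 1 library. Stage and age cannot be told apart in this design. Whether the meninges were removed before the tissue was frozen is not given in the sources used here. FPKM scales the fragments of a transcript by its length and by the mapped fragments of the library. Values are given in the order of replicates 1, 2 and 3.

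The leptomeninges wrap the brain and follow larger vessels into the tissue. Their fibroblasts lay down collagen fibrils together with small leucine-rich proteoglycans, which coat the fibrils and set their spacing and width. They also carry transporters and enzymes of the barrier between brain and cerebrospinal fluid, and they are a source of retinoic acid. In a bulk sample, more cells of this type and more RNA per cell cannot be told apart.

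Pubertal replicate 3 stood apart from the other libraries. Its Pearson r with the other 5 on log2(FPKM + 1), across all genes tested, was 0.976 to 0.981, against 0.984 to 0.990 among the others. Summaries of the fibroblast genes are therefore given with and without it. The median log2(FPKM + 1) of genes with a mean of at least 1 FPKM was 3.80 to 3.83 in the 6 libraries. The summed FPKM of a library ran more widely, from 813233 to 1448560, and was highest in prepubertal replicate 1. Its part in the results was not tested. Neuronal SNAP25 was measured at 466 to 556 FPKM and the hypothalamic peptide gene PMCH at 673 to 2173 FPKM. AVP, a hormone gene of the hypothalamus, was listed at 0 in every library.

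All 9 genes had a higher mean log2 level in the pubertal than in the prepubertal libraries, where 49.8% of all 16397 genes tested did. Without pubertal replicate 3 all 9 still did, beside 51.3% of all genes. All 9 were highest in pubertal replicate 3, which was the highest library for 22% of all genes. In 8 of the 9 genes prepubertal replicate 1 was the lowest library, for which the share over all genes was not taken. The summed level of the 9 genes was 246, 214 and 505 FPKM for the pubertal goats, and 177, 196 and 187 FPKM for the prepubertal goats. The stages did not overlap in this sum, and pubertal replicate 3 was far above every other library. Leaving out PTGDS, the most abundant gene, the sum was 148 ± 89.0 FPKM at the pubertal stage against 62.6 ± 15.4 FPKM before it (SD, n = 3 each).

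**Figure D1:**
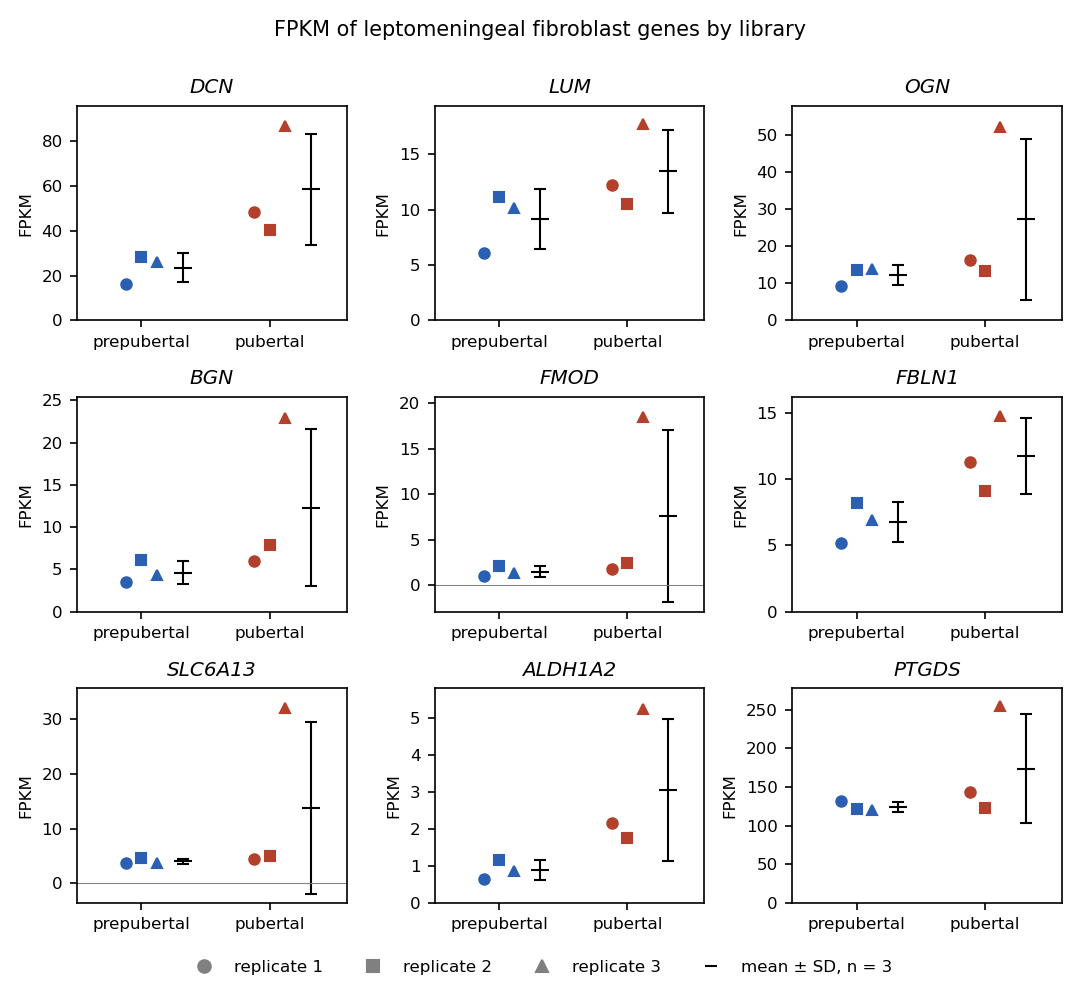
FPKM of each gene in each library, with prepubertal libraries in blue, pubertal libraries in red, a symbol for each replicate number and the mean ± SD of 3 libraries in black. Pubertal replicate 3 is the highest point in all 9 panels, and the stages do not overlap for DCN, FBLN1 and ALDH1A2. SD bars that reach below 0 reflect the spread and not values below 0.

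Decorin, lumican, osteoglycin, biglycan and fibromodulin are small leucine-rich proteoglycans. DCN encodes decorin, which binds collagen fibrils and TGF-beta. Pubertal libraries held 48.3, 40.3 and 86.9 FPKM and prepubertal libraries 16.1, 28.2 and 26.1 FPKM. Every pubertal library lay above every prepubertal library, the lowest pubertal value being 1.43 times the highest prepubertal one. The means were 58.5 ± 24.9 against 23.5 ± 6.49 FPKM (pubertal against prepubertal, SD, n = 3 each). The log2 difference was 1.24 (standard error 0.30) in limma, and 0.92 (standard error 0.23) without pubertal replicate 3, where the stages still did not overlap.

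DCN had 2 transcripts in the table, NM_001285555.1 of 1238 nt and XM_005679813.2 of 2033 nt. The shorter held 43.9% to 62.0% of the DCN level. NM_001285555.1 averaged 32.6 ± 14.2 against 11.9 ± 4.14 FPKM (pubertal against prepubertal, SD, n = 3 each). XM_005679813.2 averaged 25.9 ± 11.4 against 11.6 ± 3.75 FPKM (pubertal against prepubertal, SD, n = 3 each). The longer transcript was at 15.3 FPKM in pubertal replicate 2 and at 15.8 FPKM in prepubertal replicate 2, so its stages overlapped where those of the whole gene did not.

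LUM encodes lumican, which like fibromodulin limits the thickness of collagen fibrils. Pubertal libraries held 12.2, 10.5 and 17.7 FPKM and prepubertal libraries 6.08, 11.2 and 10.2 FPKM. Pubertal replicate 2 lay below prepubertal replicate 2, and the stages overlapped. The log2 difference was 0.52 (standard error 0.24), and 0.32 (standard error 0.23) without pubertal replicate 3. LUM and DCN are next to each other in the order of RefSeq genes on the ARS1.2 assembly, with the family members KERA and EPYC beyond LUM. The mean of pubertal replicates 1 and 2 was 1.89 times the prepubertal mean for DCN and 1.25 times for LUM. KERA, the corneal proteoglycan keratocan, was measured at 0.0890 to 0.383 FPKM and EPYC, a cartilage proteoglycan, at 0 to 0.195 FPKM over the 6 libraries.

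OGN encodes osteoglycin, also called mimecan. Pubertal libraries held 16.2, 13.3 and 52.2 FPKM and prepubertal libraries 9.15, 13.5 and 13.9 FPKM. Pubertal replicate 3 stood far above the other 5 libraries, at 3.55 times the mean of the other pubertal libraries. The log2 difference of 0.86 (standard error 0.44) became 0.27 (standard error 0.19) without it. The transcripts NM_001285613.1 of 900 nt and XM_013966068.1 of 2362 nt were both highest in pubertal replicate 3, at 21.2 and 31.0 FPKM. OGN is followed in gene order by OMD, ASPN and ECM2, all of its family. ECM2 was the most abundant of the other family members. Pubertal libraries held 15.8, 12.5 and 36.6 FPKM and prepubertal libraries 9.90, 13.3 and 10.3 FPKM. ASPN, which encodes asporin, was at 4.18 FPKM in pubertal replicate 3 and at 0.303 to 0.730 FPKM in the other 5 libraries. OMD, which encodes osteomodulin, reached at most 0.508 FPKM.

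BGN encodes biglycan, the close relative of decorin. Pubertal libraries held 5.97, 7.90 and 23.0 FPKM and prepubertal libraries 3.48, 6.06 and 4.31 FPKM. The overlap of the stages was narrow, with the lowest pubertal library at 0.985 times the highest prepubertal one. The log2 difference was 1.05 (standard error 0.42), and 0.51 (standard error 0.21) without pubertal replicate 3.

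FMOD encodes fibromodulin, a proteoglycan of the fibril surface. Pubertal libraries held 1.79, 2.48 and 18.5 FPKM and prepubertal libraries 1.01, 2.14 and 1.32 FPKM. Of the 9 genes it differed most between pubertal replicate 3 and the mean of the other pubertal goats, by 8.66 times. The log2 difference of 1.23 (standard error 0.65) was 0.35 (standard error 0.21) without that library. PRELP, the family member next to FMOD in gene order, was at 8.65 FPKM in pubertal replicate 3 and at 1.37 to 1.96 FPKM in the other libraries.

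By the mean over the libraries the order of the 5 proteoglycans was DCN, OGN, LUM, BGN and FMOD. DCN lay above OGN, and OGN above LUM, in 6 of 6 libraries. Among all 9 genes PTGDS was highest, and SLC6A13 and BGN were not told apart by their levels, the first being above the second in 2 of 6 libraries. DCN held 57.2% and 54.1% of the summed proteoglycan level in pubertal replicates 1 and 2. In pubertal replicate 3 its share was 43.8%, and in the prepubertal goats it was 44.9% to 46.8%.

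**Figure D2:**
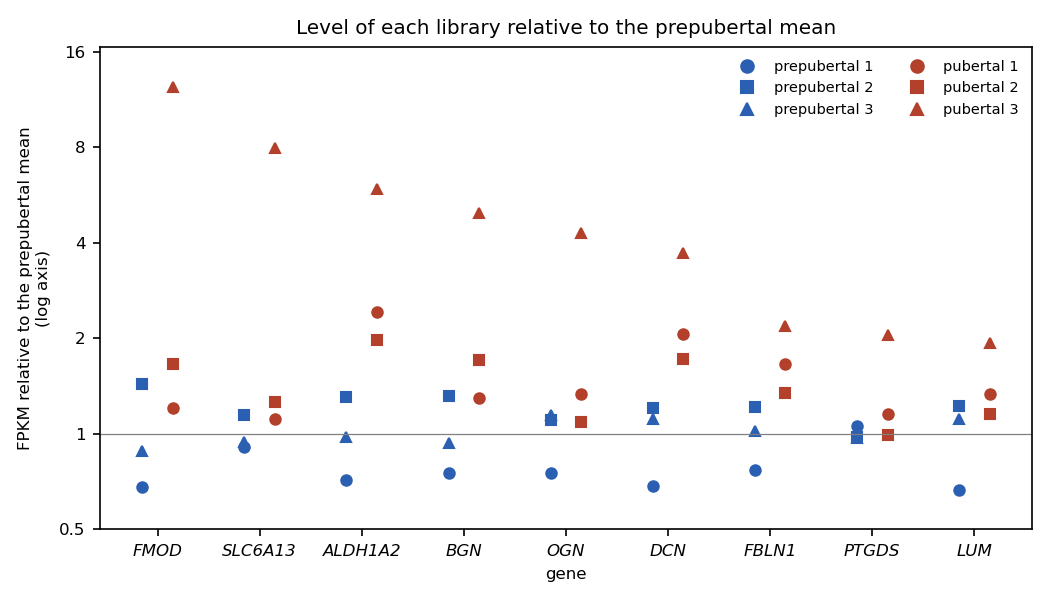
FPKM of each library divided by the mean of the 3 prepubertal libraries for the same gene, on a log axis, with genes ordered by the value in pubertal replicate 3. This library ranged from 1.94 times the prepubertal mean for LUM to 12.4 times for FMOD, while pubertal replicates 1 and 2 were both above all prepubertal libraries only for ALDH1A2, DCN and FBLN1.

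FBLN1 encodes fibulin-1, a glycoprotein of elastic fibres and basement membranes. Pubertal libraries held 11.3, 9.09 and 14.8 FPKM and prepubertal libraries 5.21, 8.22 and 6.94 FPKM. No pubertal library lay below a prepubertal one. Pubertal replicate 3 was 1.45 times the mean of the other pubertal libraries, the smallest such ratio among the 9 genes. The other 8 genes had a ratio above 1.5, as did 9.71% of all genes tested. The log2 difference was 0.70 (standard error 0.20), and 0.53 (standard error 0.19) without pubertal replicate 3.

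ALDH1A2 encodes the retinaldehyde dehydrogenase that makes retinoic acid in the meninges, and it was the least abundant of the 9 genes. Pubertal libraries held 2.14, 1.76 and 5.24 FPKM and prepubertal libraries 0.635, 1.16 and 0.868 FPKM. The lowest pubertal library was 1.51 times the highest prepubertal library, the widest gap among the 9 genes. On FPKM the pubertal mean was 3.43 times the prepubertal mean, and 2.20 times with pubertal replicates 1 and 2 alone. The log2 difference of 1.01 (standard error 0.29) was 0.65 (standard error 0.16) without pubertal replicate 3.

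SLC6A13 encodes the GABA transporter GAT2, which in the brain is found in the leptomeninges. Pubertal libraries held 4.47, 5.05 and 32.0 FPKM and prepubertal libraries 3.65, 4.60 and 3.79 FPKM. Apart from pubertal replicate 3, the libraries lay between 3.65 and 5.05 FPKM and the stages overlapped. Pubertal replicate 3 was 6.72 times the mean of the other pubertal libraries. The log2 difference was 1.04 (standard error 0.60) with it and 0.20 (standard error 0.14) without it.

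PTGDS encodes the lipocalin-type prostaglandin D synthase, a product of meninges, choroid plexus and oligodendrocytes that is secreted into cerebrospinal fluid. Its only transcript in the table, XM_013968097.1, was 309 nt long. Pubertal libraries held 144, 123 and 255 FPKM and prepubertal libraries 132, 121 and 120.0 FPKM. The stages overlapped, and the log2 difference of 0.41 (standard error 0.24) was 0.10 (standard error 0.11) without pubertal replicate 3. The highest prepubertal library was 1.10 times the lowest for PTGDS, against 1.26 to 2.12 times for the other 8 genes.

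The stages did not overlap for 3 of 9 genes, DCN, FBLN1 and ALDH1A2, where 5.91% of all genes tested had all pubertal above all prepubertal libraries. Since the genes were chosen with this contrast known, nothing is read from these counts. Without pubertal replicate 3 the count was 3, against 8.5% of all genes. It was 6 without pubertal replicate 1 and 6 without pubertal replicate 2, against 14.7% and 11.8%. Leaving out prepubertal replicates 1, 2 and 3 in turn gave 4, 7 and 3 genes, against 8.7%, 10.7% and 10.6%. The median log2 difference of the 9 genes was 1.01 with all libraries and 0.35 without pubertal replicate 3, beside -0.00065 and 0.0040 over all genes tested. In limma, with Benjamini-Hochberg adjustment over all 16397 genes, 0 of the 9 genes and 0% of all genes had an adjusted p-value under 0.05. Unadjusted p-values under 0.05 were counted for 4 of the 9, all higher in pubertal goats, and for 846 of all genes (5.16%, or 3.51% in that direction).

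**Figure D3:**
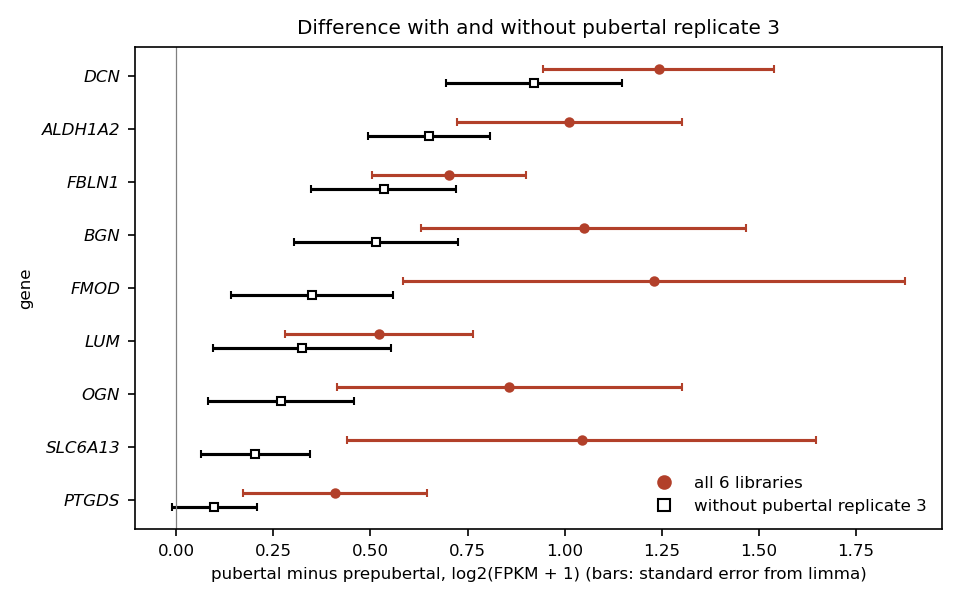
Pubertal minus prepubertal mean of log2(FPKM + 1) for each gene, with standard errors from limma, using all 6 libraries (red circles) or leaving out pubertal replicate 3 (white squares). Every estimate is above 0, and the largest shifts on leaving out the library are those of FMOD, from 1.23 to 0.35, and SLC6A13, from 1.04 to 0.20.

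Genes related to these 9 by family or pathway were read from the same fit, and 0 of them had an adjusted p-value under 0.05 in limma. Of the 10 other small leucine-rich proteoglycan genes tested, 7 had a higher and 3 a lower mean at the pubertal stage, with a median log2 difference of 0.29, or 0.04 without pubertal replicate 3. None of them separated the stages, where 5.91% of all genes did with pubertal higher. All 6 other fibulin genes had a higher pubertal mean, and 3 of the 6 did without pubertal replicate 3. Their median was 0.20, or 0.01 without that library, and 1 of the 6 separated the stages. EFEMP1, which encodes fibulin-3, was at 70.1 FPKM in pubertal replicate 3 and at 12.6 to 19.8 FPKM in the other libraries.

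Retinoic acid handling genes other than ALDH1A2 had a higher pubertal mean in 10 of 12, with a median log2 difference of 0.18, or 0.01 without pubertal replicate 3. In 4 of the 12 the stages did not overlap, beside the 5.91% of all genes. ALDH1A1, another retinaldehyde dehydrogenase, was one of them. Pubertal libraries held 13.4, 11.9 and 33.1 FPKM and prepubertal libraries 6.77, 7.14 and 8.15 FPKM. Its log2 difference was 1.15 (adjusted p = 0.795 from limma). DHRS3, which reduces retinaldehyde back to retinol, also separated the stages, at 27.9 ± 3.26 against 21.9 ± 0.658 FPKM (pubertal against prepubertal, SD, n = 3 each). CRABP2, a retinoic acid binding protein, held 0.829, 0.694 and 19.9 FPKM in pubertal goats against 0.594, 0.604 and 0.536 FPKM, so its stages did not overlap and pubertal replicate 3 was far above the rest. CRABP1 and RBP4, which bind retinoic acid and retinol, were the most abundant of this list. Their log2 differences were 0.25 and 0.15, and -0.20 and -0.15 without pubertal replicate 3.

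Of 3 other transporters of GABA and taurine, 1 had a higher and 2 a lower pubertal mean, with a median log2 difference of -0.01. Without pubertal replicate 3 the median was 0.0023. SLC6A11, the GABA transporter GAT3 of astrocytes, had a log2 difference of 0.03. It was at 61.9 FPKM in pubertal replicate 3 and at 54.1 to 61.8 FPKM elsewhere. SLC6A13, in contrast, was in this library 6.72 times the mean of the other pubertal libraries.

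Around PTGDS, 9 of 13 genes of prostaglandin synthesis and reception had a higher and 4 a lower pubertal mean, with a median log2 difference of 0.14. In 2 of them, HPGDS and PTGER3, the stages did not overlap, beside 5.91% of all genes. HPGDS encodes the other prostaglandin D synthase. Pubertal libraries held 0.636, 0.374 and 0.800 FPKM and prepubertal libraries 0.181, 0.153 and 0.0742 FPKM. PTGER3, a prostaglandin E2 receptor, was measured at 8.19, 9.15 and 11.3 FPKM in pubertal libraries against 7.73, 6.69 and 7.86 FPKM. PTGDR, a receptor for prostaglandin D2, was highest in pubertal replicate 3 at 2.88 FPKM and at 0.270 to 1.08 FPKM elsewhere. The most abundant gene of the list, the synthase PTGES3, had means of 104 ± 14.8 against 106 ± 8.38 FPKM (pubertal against prepubertal, SD, n = 3 each). Of 6 genes of vitamin K dependent carboxylation, the modification that MGP needs, 5 had a higher pubertal mean, with a median of 0.13. PROS1, which encodes protein S, held 13.3, 11.2 and 37.7 FPKM in pubertal goats against 9.32, 8.33 and 9.83 FPKM, and it was the 1 gene of the 6 whose stages did not overlap. The carboxylase gene GGCX had means of 18.1 ± 0.781 against 16.8 ± 0.639 FPKM (pubertal against prepubertal, SD, n = 3 each).

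A further list of leptomeningeal fibroblast genes, none among the 10, held 26 of 27 with a higher pubertal mean and a median log2 difference of 0.62, or 0.23 without pubertal replicate 3. In 10 of the 27 the stages did not overlap (5.91% of all genes), and the lowest adjusted p was 0.729 (limma). OLFML3, a secreted matrix glycoprotein and the most abundant of them, separated the stages at 40.1 ± 11.9 against 25.3 ± 3.93 FPKM (pubertal against prepubertal, SD, n = 3 each). SERPINF1 encodes pigment epithelium-derived factor. Pubertal libraries held 4.22, 5.43 and 10.2 FPKM and prepubertal libraries 1.03, 2.16 and 2.60 FPKM. IGFBP2, which binds insulin-like growth factors, held 4.93, 5.18 and 73.6 FPKM in pubertal goats, above the 3.93, 4.08 and 2.41 FPKM of prepubertal goats. The growth factor IGF2 held 0.668, 0.473 and 15.3 FPKM against 0.274, 0.371 and 0.225 FPKM. Both separated the stages, with by far the highest level in pubertal replicate 3. The organic cation transporter SLC47A1 was at 24.6 FPKM in that library and at 0.309 to 4.44 FPKM in the others, and its stages overlapped. LAMA1, a laminin chain, was the 1 gene with a lower pubertal mean, at 10.8 ± 0.940 against 11.5 ± 0.744 FPKM (pubertal against prepubertal, SD, n = 3 each).

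Markers of other cells moved in part with the fibroblast genes, and their part in the result was not tested. The sum of 7 collagen genes was 96.5 to 216 FPKM in the pubertal and 39.2 to 70.6 FPKM in the prepubertal libraries, with a median log2 difference of 1.08, or 0.67 without pubertal replicate 3. COL1A2, a chain of collagen I, was the most abundant. Pubertal libraries held 46.5, 36.4 and 94.4 FPKM and prepubertal libraries 12.0, 25.2 and 25.5 FPKM. Markers of mural cells of the vessel wall had a higher pubertal mean in 9 of 10, with a median log2 difference of 0.46, or 0.34 without pubertal replicate 3. The stages did not overlap for 6 of the 10 mural genes and 4 of the 7 collagens, beside 5.91% of all genes. The mural sum was 142 to 368 FPKM in the pubertal and 95.9 to 119.7 FPKM in the prepubertal libraries. TAGLN, a smooth muscle gene, held 19.0, 22.2 and 105 FPKM in pubertal goats against 9.79, 11.6 and 12.5 FPKM, and its stages did not overlap. Endothelial markers had a higher pubertal mean in 8 of 9 with a median of 0.10, and 1 of the 9 separated the stages. Their sum was 53.4 to 66.7 FPKM in the pubertal and 45.6 to 61.0 FPKM in the prepubertal libraries. No tested gene of these 3 lists was at 0 in all libraries.

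The 9 choroid plexus genes summed to 8.58 to 333 FPKM in the pubertal and 9.90 to 60.5 FPKM in the prepubertal libraries, and 8 were highest in pubertal replicate 3. TTR encodes transthyretin, the main secreted protein of choroid plexus. Pubertal libraries held 6.95, 1.14 and 309 FPKM and prepubertal libraries 53.4, 11.9 and 3.88 FPKM. TTR was thus second highest in prepubertal replicate 1, where 8 of the 9 fibroblast genes were lowest. KCNJ13, next in abundance on the list, held 1.58, 1.86 and 14.4 FPKM in pubertal goats against 1.70, 1.54 and 1.43 FPKM. The median log2 difference of the 9 choroid plexus genes was 0.21, or 0.02 without pubertal replicate 3. Their part in the result was not tested. Of 6 pituitary genes 5 had a higher pubertal mean, with sums of 46.9 to 66.8 FPKM in the pubertal and 3.75 to 21.1 FPKM in the prepubertal libraries. Their median log2 difference was 0.40, or 0.71 without pubertal replicate 3 over those still at the minimum. Some of the 6 fell below the minimum there, so these medians are over unlike sets of genes. CGA, the shared alpha subunit of pituitary glycoprotein hormones, was the most abundant. Pubertal libraries held 50.1, 62.5 and 39.4 FPKM and prepubertal libraries 2.24, 18.0 and 3.32 FPKM. Pubertal replicate 3, highest for the fibroblast genes, was the lowest pubertal library for CGA. It was, however, the highest library for 3 of the 6 pituitary genes. TSHB was one of these 3, at 2.46, 2.33 and 4.04 FPKM in the pubertal libraries.

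Lists of astrocytes, oligodendrocytes, ependyma and neurons had median log2 differences of 0.02, 0.10, -0.19 and -0.18. Without pubertal replicate 3 they were -0.01, 0.13, -0.18 and -0.12. The 8 neuronal genes summed to 1158 to 1429.5 FPKM in the pubertal and 1355 to 1456 FPKM in the prepubertal libraries, all 8 with a lower pubertal mean. The lowest sum was in pubertal replicate 3, and without that library 2 of the 8 had a higher pubertal mean. STMN2, a neuronal microtubule regulator, had means of 389 ± 50.1 against 455 ± 22.3 FPKM (pubertal against prepubertal, SD, n = 3 each). The ependymal genes summed to 72.6 to 81.5 FPKM in the pubertal and 82.1 to 96.6 FPKM in the prepubertal libraries, and in 2 of 6 all pubertal lay below all prepubertal libraries, as for 3.84% of all genes. The astrocyte genes summed to 6122 to 6394 FPKM in the pubertal and 6033 to 6334 FPKM in the prepubertal libraries. Of the oligodendrocyte genes MBP was listed at 0 in prepubertal replicate 1, so their summed level was not compared. The 4 hypothalamic genes tested had a median of -0.26, or -0.03 without pubertal replicate 3. GNRH1, the gene of gonadotropin-releasing hormone, was measured at 13.5, 14.1 and 16.0 FPKM in pubertal libraries against 6.92, 11.6 and 5.34 FPKM (adjusted p = 0.779 from limma).

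**Figure D4:**
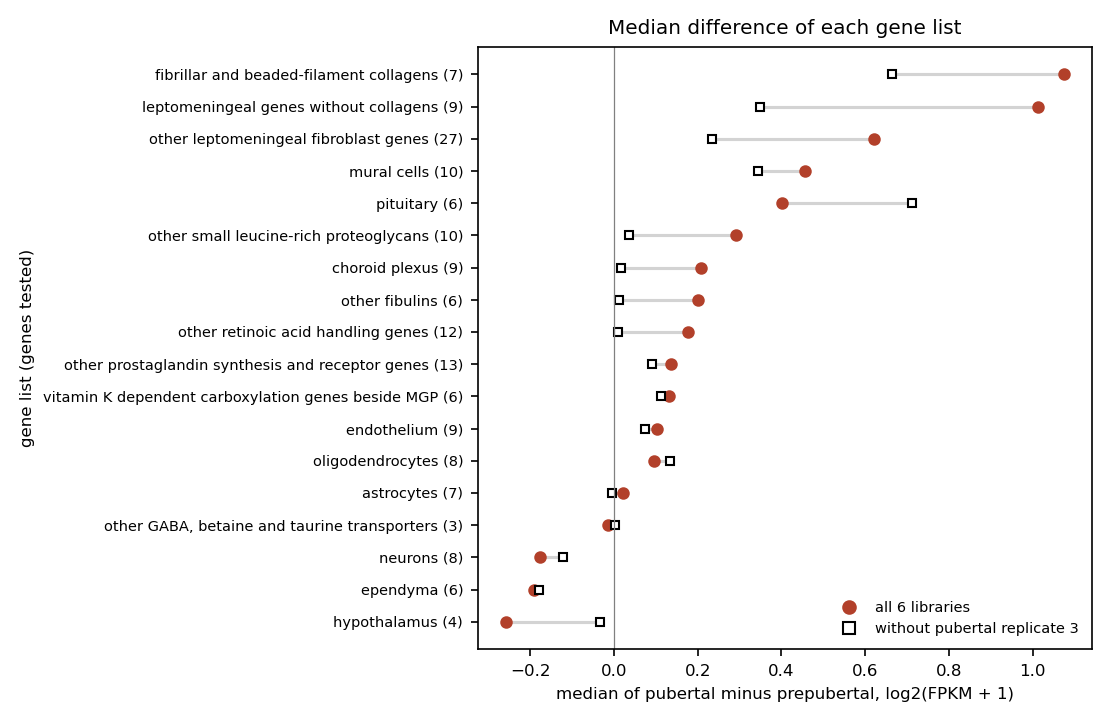
Median over the genes of each list of the pubertal minus prepubertal mean of log2(FPKM + 1), with all 6 libraries (red circles) and without pubertal replicate 3 (white squares), and the number of genes tested in brackets. With all libraries the collagens and the leptomeningeal genes described here have the highest medians, 1.08 and 1.01, and the neurons, ependyma, hypothalamus and GABA transporter lists lie below 0. Without pubertal replicate 3, over genes still at the minimum, the pituitary list is highest at 0.71 and the collagens follow at 0.67. That pituitary median is over fewer genes than the number in brackets. The leptomeningeal genes described here are then at 0.35, close to the mural cells at 0.34.

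The pattern of the 9 genes over the libraries was compared with that of 14072 other genes of at least 1 FPKM. The standardised log2 levels of the 9 were averaged, and Pearson r with each gene was taken over the 6 libraries, as a description. An r above 0.9 was found for 452 genes and above 0.95 for 161. All points share the same libraries, and pubertal replicate 3 weighs heavily in each. The 10 nearest genes were MAMDC2, TBX18, PCOLCE, LOC102186893, COL6A1, TRIM25, LPP, RECK, SIDT1 and CREB3L2. Their r was 0.991 to 0.999 and their Spearman rho 0.943 to 1, and without pubertal replicate 3 their r was 0.945 to 0.998 over 5 libraries. TBX18, a transcription factor of meningeal and mural cells, and PCOLCE, which speeds the trimming of procollagen, were on the further leptomeningeal list. COL6A1 is a collagen VI chain, and RECK is a membrane inhibitor of matrix metalloproteinases. MAMDC2 was nearest of all. Pubertal libraries held 1.93, 1.84 and 3.08 FPKM and prepubertal libraries 1.33, 1.69 and 1.54 FPKM.

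In the part of the study's lists held here, lncRNAs were placed near 2 of the 9 genes, PTGDS and FMOD. XLOC_430642, within 10 kb of PTGDS, was at 2.33 FPKM in pubertal replicate 2 and listed at 0 in the other 5 libraries. XLOC_430692, within 100 kb of PTGDS, was measured at 2.44, 2.14 and 3.17 FPKM in pubertal libraries against 2.45, 3.06 and 1.87 FPKM. The list for 100 kb was held only in part. It placed XLOC_742222, XLOC_776787 and XLOC_776847 near FMOD. For XLOC_742222 pubertal libraries held 1.20, 0.494 and 4.11 FPKM and prepubertal libraries 0.318, 0 and 0.780 FPKM. It was highest in pubertal replicate 3, as FMOD was, and its stages overlapped. XLOC_776787 and XLOC_776847 reached at most 0.860 and 0.451 FPKM, and both were listed at 0 in pubertal replicate 3.

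Part of the sequence of XLOC_742222 is shown because its highest value fell in the same library as that of FMOD, a choice made after the values were seen. Its transcript TCONS_01566965, as deposited, was 409 nt long, and bases 201 to 384 are printed 5′ to 3′. The capitals mark its longest reading frame from ATG to stop codon on the given strand, 28 codons with the stop, from base 251 to base 334.
TCONS_01566965: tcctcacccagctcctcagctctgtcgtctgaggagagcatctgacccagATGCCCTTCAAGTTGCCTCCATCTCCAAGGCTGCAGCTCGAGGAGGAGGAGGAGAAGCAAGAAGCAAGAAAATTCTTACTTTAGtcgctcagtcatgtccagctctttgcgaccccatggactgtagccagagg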

How the data were processed

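Libraries were grouped by stage from the sample labels. The authors deposited FPKM per transcript and library, from strand-specific paired-end reads aligned to the goat genome with TopHat and assembled with Scripture and Cufflinks 2.1.1. The genome build is not given in the sources used here. The deposited table of the authors' Cuffdiff 2.1.1 comparison was used for the gene of each transcript only. Its group means, fold changes, p-values and q-values were left aside. Read counts behind single FPKM are unknown.

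FPKM were summed by gene. RefSeq (ARS1.2) supplied symbols for 19083 of 20225 genes. Stages were compared with limma 3.58.1 in R 4.3.3 (lmFit, then eBayes with trend) on log2(FPKM + 1), which understates differences of low genes. Tests were two-sided, over genes with a mean of at least 0.1 FPKM, and p-values were adjusted by Benjamini-Hochberg with a threshold of 0.05. Cuffdiff, the test of the study, needs reads. The fit was run on simulated data with independent normal noise. No simulated library was set apart as pubertal replicate 3 is, so that run does not bear on its weight. Tables were made with pandas 2.3.3 and numpy 2.4.6 in Python 3.11.15, and plots with matplotlib 3.10.9. An exact permutation test of 3 against 3 libraries cannot give a p-value under 0.1. P-values measure the spread between these goats.

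The genes and lists were chosen with earlier results of these data known. Beside the 9 genes, their family neighbours and the 10 genes of nearest pattern, the text names genes of each list past the threshold or, failing that, among its 4 most abundant. ALDH1A1, CRABP2, HPGDS, PTGDR, SERPINF1, IGF2 and SLC47A1 were named after their values were seen. The alternatives tried were a pseudocount of 0.1, a minimum of 1 FPKM or none, quantile normalization, median centring, upper quartile scaling, limma without trend, the replicate number as a block, transcripts fitted singly, and leaving out each library. Protein and promoter sequences were not analysed here, and some genes of the lists are not reported here.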

Additional observations from a re-analysis of the deposited data

How the results depend on the processing

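All 9 fibroblast genes kept a higher pubertal mean under the 15 alternatives, in 135 of 135 recomputed differences, and none of them had an adjusted p-value under 0.05 under any alternative. Changing the minimum, the trend or the block cannot change a difference of stage means, so those settings repeated it. Fitting transcripts singly repeated it for genes with 1 transcript, and counted 1 of 2 transcripts for DCN and OGN. The genes were chosen on this contrast, so the count is a description. Of these differences 134 moved by less than the spread between replicates, and that of ALDH1A2 went from 1.01 to 1.54 with a pseudocount of 0.1. That spread included pubertal replicate 3 itself and was 1.11 for FMOD and 1.04 for SLC6A13. Falls from 1.23 to 0.35 and from 1.04 to 0.20 without that library therefore counted as below it. The count cannot speak to the weight of that library. The median log2 difference of the 9 genes was 0.94 to 1.15 under the alternatives with all libraries, and 0.35 to 1.23 with each library left out, the lowest without pubertal replicate 3. The cause was not tested. With each library left out, the number of genes without overlap was 3 to 7, the number of all genes with an adjusted p-value under 0.05 was 0 to 4 (4 without pubertal replicate 2, 1 without prepubertal replicate 2 and 1 without prepubertal replicate 3), and that of the other lists was 0 to 1, the 1 being CGA without prepubertal replicate 2.

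With the replicate number as a block, 1 of all genes had an adjusted p-value under 0.05, in place of 0, and it was 0 of the 9 and 0 of the other lists. What the replicate number stands for is not given in the sources used here. For goats of the same number, deviations from the stage means had correlations of -0.0246, -0.101 and 0.0752. Pubertal replicates 1 and 2 correlated best with prepubertal replicates of another number, at 0.0599 and 0.157. Pubertal replicate 3 correlated best with prepubertal replicate 3, at 0.0752. Whether goats of the same number shared a batch was not tested. FPKM hold no read counts, so the counting error of genes of low level such as ALDH1A2, and of the lncRNAs, could not be given.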
